A study of Mus musculus with 4 samples.

Results

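The cells described here were the MHC class II positive cells among mouse hematopoietic stem and progenitor cells recovered after 5-fluorouracil (5-FU). They were selected on 4 transcripts: a cell was kept when it held at least 1 unique molecular identifier (UMI, one counted mRNA molecule) of 3 or more of H2-Aa, H2-Ab1, H2-Eb1 and Cd74. Of 9029 single cells with a called hashtag in the 5-FU library, 742 met this rule, of which 440 were wild type and 302 were Sin3B knockout. They were compared with the 4281 tagged cells of the same library that held no UMI of any of the 4 genes, and the series as a whole held 25236 tagged single cells. Lineage-negative, Sca-1+, cKit+ (LSK) bone marrow cells were sorted from C57BL/6 mice, with 2 mice pooled per genotype, and captured as single cells with a hashtag library beside the cDNA library. The knockout mice carried floxed Sin3B alleles deleted by Vav1-iCre, which is active throughout the blood lineage. The mice called wild type here carried the floxed alleles (Sin3B F/F) and no Cre. All mice of the 5-FU library had received 100 mg/kg 5-FU, a drug that kills dividing cells, 9 days before harvest, whereas the homeostasis library came from untreated mice of both genotypes. The labels do not say which hashtag marked which genotype, so the assignment was taken from the methods of the study (the B0096 antibody on wild-type cells and the B0157 antibody on knockout cells). No source used here states the age of the mice.

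MHC class II molecules display peptides from outside the cell to CD4 T cells. H2-Aa and H2-Ab1 encode the alpha and beta chains of I-A, H2-Eb1 encodes the beta chain of I-E, and Cd74 encodes the invariant chain that holds the peptide groove closed until the complex reaches the endosome. There, H2-DM exchanges the remnant of the invariant chain for peptide and H2-O restrains that exchange. Transcription depends on RFX, CREB and NF-Y factors bound to a conserved promoter module and on the coactivator CIITA, which interferon gamma induces through JAK kinases. B cells, dendritic cells and activated macrophages are the classical class II positive cells, and hematopoietic stem and progenitor cells can also carry the molecules at their surface.

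Promoters are shown for genes of the rule and for 1 member each of the class I and interferon groups described below, each with a match to a motif that was searched in all promoters. Each sequence runs 5′ to 3′ over 250 bases before and 50 bases after the RefSeq start site (GRCm38.p6), and capitals mark an exact match to the named motif on either strand. The first pair belongs to class II genes of the rule and the third to H2-K1, a class I heavy chain gene, with the NF-Y binding Y box (CTGATTGG) in capitals. The fourth belongs to Tgtp1, an interferon-induced GTPase gene, with the interferon-stimulated response element (GAAA, 2 bases of any kind, and GAAA again) in capitals. H2-Aa is at chr17:34287774-34288073 on the minus strand, H2-Eb1 at chr17:34305617-34305916 on the plus strand, H2-K1 at chr17:34000298-34000597 on the minus strand and Tgtp1 at chr11:48992197-48992496 on the minus strand.
H2-Aa: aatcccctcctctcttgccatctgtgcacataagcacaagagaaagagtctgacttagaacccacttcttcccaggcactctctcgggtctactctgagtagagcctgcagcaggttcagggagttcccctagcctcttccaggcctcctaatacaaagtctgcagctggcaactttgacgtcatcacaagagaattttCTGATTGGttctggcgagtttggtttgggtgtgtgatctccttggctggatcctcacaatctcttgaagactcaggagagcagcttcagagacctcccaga
H2-Eb1: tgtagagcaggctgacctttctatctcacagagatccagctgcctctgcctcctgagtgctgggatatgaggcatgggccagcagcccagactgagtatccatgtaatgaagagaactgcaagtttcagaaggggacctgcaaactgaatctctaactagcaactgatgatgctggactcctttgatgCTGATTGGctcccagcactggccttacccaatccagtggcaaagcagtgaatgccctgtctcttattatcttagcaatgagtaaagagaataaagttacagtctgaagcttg
H2-K1: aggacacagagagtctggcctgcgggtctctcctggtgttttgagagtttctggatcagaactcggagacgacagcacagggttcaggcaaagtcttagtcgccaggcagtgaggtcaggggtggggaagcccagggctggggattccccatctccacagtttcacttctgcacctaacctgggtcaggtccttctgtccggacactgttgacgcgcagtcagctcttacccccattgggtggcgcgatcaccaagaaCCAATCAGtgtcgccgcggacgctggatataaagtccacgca
Tgtp1: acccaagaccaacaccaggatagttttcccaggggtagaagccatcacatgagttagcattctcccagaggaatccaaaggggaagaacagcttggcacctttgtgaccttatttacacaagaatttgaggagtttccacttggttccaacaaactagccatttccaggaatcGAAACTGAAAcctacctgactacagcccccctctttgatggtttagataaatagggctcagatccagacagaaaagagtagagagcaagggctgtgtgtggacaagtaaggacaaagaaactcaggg

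The Y box began 51 bases before the start site in H2-Aa and 62 bases before it in H2-Eb1. The exact motif was present in 4.31% of 27025 RefSeq promoter windows, in both of the 2 matched promoters of the rule genes and in 7 of 15 matched class I presentation promoters (H2-D1, H2-K1, H2-Q6, H2-Q7, H2-T23, Psmb9 and Tap1). In H2-K1 it lay on the opposite strand, 8 bases after the start site. The interferon-stimulated response element began 77 bases before the start site in Tgtp1. It was present in 3.49% of all windows, in 10 of 13 matched interferon gamma response promoters and in 4 of 15 class I promoters. A gamma-activated site (TTCNNNGAA), an element of interferon gamma responsive promoters, was present in 8.47% of all windows and in 7 of 13 interferon gamma response promoters, but in 1 of 15 class I promoters. Neither interferon element was present in the 2 rule-gene promoters, and the Y box was present in 2 of 10 class II loading promoters. These matches describe letters in a window and not factor binding.

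The targeted gene was checked first. Among class II positive cells, Sin3b was at 92.9 CPM (UMIs scaled to the pool total; 442 UMIs) in wild-type cells and 18.4 CPM (68 UMIs) in knockout cells, a log2 ratio of -2.33 (95% counting interval -2.73 to -1.97), and in cells with none of the 4 genes the log2 ratio was -2.80 (-2.98 to -2.64). The 5-FU matrix held 12753 barcodes, of which 434 carried both tags and 3290 carried no called tag, and 76 cell barcodes were shared with the homeostasis library. Class II positive cells had a median of 8791.5 UMIs in wild type and 8654.5 in knockout, against 8354 and 9706 in cells with none of the genes. Cells with 1 or 2 of the 4 genes were deeper, at 10665 and 14662.5. Since each genotype was 1 pool of cells in 1 library, no test between genotypes was possible. Cell groups were not tested, because the rule chose them on counts of the same cells, and every interval below covers counting error only.

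A few positive cells carried markers of mature cells that the sort should have left out. By summed B cell, dendritic cell and macrophage, mature neutrophil or T cell genes, 6 of 440 wild-type and 13 of 302 knockout positive cells were lineage-marked. These comprised 3 wild-type and 7 knockout cells with B cell genes, 3 and 5 with dendritic cell and macrophage genes, and 1 knockout cell with mature neutrophil genes, and no positive cell reached the mark for T cell genes. The 6 marked wild-type cells held 1757 of the 5708 class II UMIs of wild-type positive cells, and the 13 marked knockout cells held 993 of 4158. Where these cells carried much of a value, it is given with and without them.

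The share of class II positive cells after 5-FU did not differ between genotypes beyond the counting error when hashtags were called with HTODemux. The rule was met by 8.30% of 5302 wild-type cells (exact binomial 95% interval 7.57 to 9.07) and by 8.10% of 3727 knockout cells (7.25 to 9.03). The knockout share was lower by a difference of -0.20 percentage points (Newcombe interval -1.33 to 0.97). When every cell was thinned to 4000 UMIs, leaving out 654 wild-type and 276 knockout cells that were shallower, the shares were 3.96% (3.42 to 4.56) and 3.94% (3.32 to 4.65), with a difference of -0.02 points (-0.87 to 0.86). The difference depended on how the hashtags were read: with a tag called from 80% of the hashtag UMIs, the knockout share was 6.28% and the difference -1.40 points (-2.40 to -0.39). Its sign was the opposite, with 0.63 points, when 2 of the 4 genes were enough, and 0.46 points when all 4 were required.

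**Figure D1:**
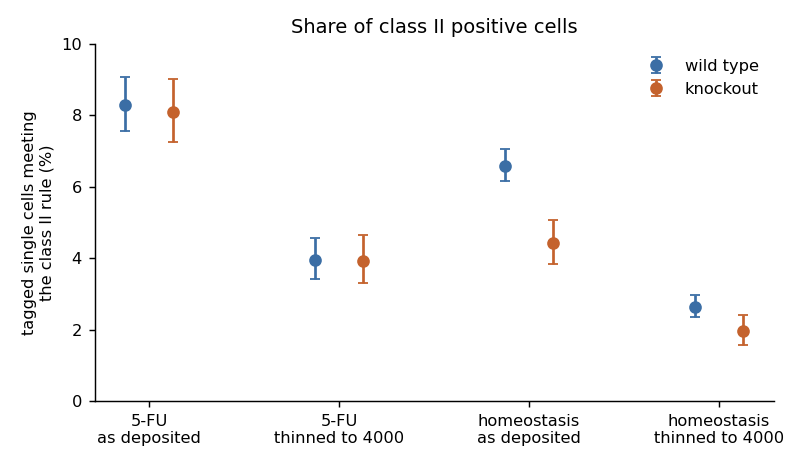
Percentage of tagged single cells that met the class II rule (y axis) by condition and by depth (x axis), with wild type in blue, knockout in orange and bars for exact binomial 95% intervals. After 5-FU the genotypes lie at 8.30% and 8.10% as deposited, and at homeostasis at 6.60% and 4.43%.

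At homeostasis, 6.60% of 11579 wild-type cells (6.15 to 7.07) and 4.43% of 4628 knockout cells (3.86 to 5.06) met the same rule. The difference was -2.17 points (-2.89 to -1.40), and -0.68 points (-1.17 to -0.13) in cells thinned to 4000 UMIs. Condition and library coincide, and the libraries differ in how introns were counted. A change with 5-FU and a difference between libraries therefore cannot be told apart. Cells marked by erythroid genes were set beside the other cells. The marker genes Klf1, Gata1, Car1 and Epor also belong to the megakaryocyte and erythroid list described below, so both comparisons describe the same relation. The mark needed 3 or more UMIs of Klf1, Gata1, Car1 and Epor before thinning, a cut that deeper cells reach more easily. The class II rule was read after thinning. Among marked 5-FU cells, 1 of 331 wild-type cells (0.30%, 0.0076 to 1.67) and 2 of 411 knockout cells (0.49%, 0.059 to 1.75) met the rule. The other cells met it in 4.24% and 4.41%. Median depths before thinning were 18215 and 21779 UMIs in marked cells and 9707 and 10985.5 in the other cells. H2-Ab1 was an exception among the 4 genes: erythroid-marked wild-type cells still held 0.148 UMIs of it per thinned cell against 0.304 in the other cells, whereas H2-Aa stood at 0.018 against 0.170 and Cd74 at 0.015 against 0.234.

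The level of class II in a positive cell was low in most cells and very high in a few. The median positive cell held 7 class II UMIs in wild type (middle 50% of cells from 5 to 11) and 8 in knockout (5 to 13). The highest wild-type cells held 828 and 645 class II UMIs and the highest knockout cell held 508, all 3 of them with dendritic cell and macrophage genes, and in each of these cells class II took 4.23% to 4.60% of all UMIs. The highest cell without a lineage mark by UMI count was a knockout cell with 131 class II UMIs, of which 89 were Cd74. A shallow wild-type cell without a mark held 41 class II UMIs among 866 UMIs in all. The marks need fixed numbers of UMIs, so shallow mature cells can go unmarked. The 5 highest cells held 30.6% of all class II UMIs of positive cells in wild type and 22.9% in knockout. Of the 742 cells, 715 reached 4000 UMIs, and 320 of those (44.8%) still met the rule after thinning. Cells just inside the rule (3 of the 4 genes, 437 cells) had a median of 5 class II UMIs and cells just outside it (2 of the 4, 901 cells) a median of 3.

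**Figure D2:**
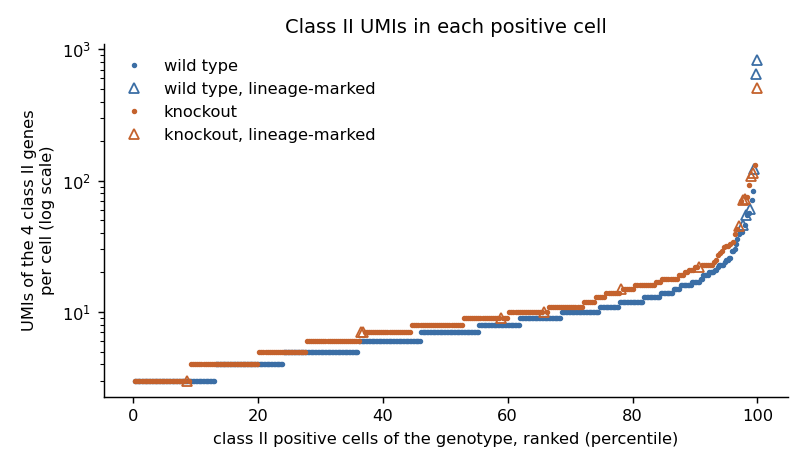
UMIs of the 4 class II genes in each positive cell (y axis, log scale) against the rank of the cell within its genotype (x axis, percentile), with lineage-marked cells as open triangles. Most cells lie near the medians of 7 and 8 UMIs, and the 3 cells above 500 UMIs are lineage-marked.

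All 4 genes were detected together in 305 of the 742 cells (41.1%), 169 of them wild type (38.4% of wild-type positive cells) and 136 knockout (45.0%). The most frequent set of 3 was H2-Aa, H2-Ab1 and Cd74 without H2-Eb1, in 140 cells, and the least frequent was H2-Ab1, H2-Eb1 and Cd74 without H2-Aa, in 80 cells. Cd74 was the highest of the 4 genes by counts in both genotypes, a ranking of 3′ tag counts between genes. It stood at 428 CPM in wild-type positive cells (410 to 447) and 453 CPM in knockout positive cells (432 to 475). H2-Aa was at 286 and 243 CPM, H2-Ab1 at 275 and 246, and H2-Eb1 at 212 and 183. With lineage-marked cells removed, Cd74 was at 277 CPM (262 to 292) in wild type and 341 CPM (322 to 360) in knockout cells, while H2-Aa was at 212 and 198, H2-Ab1 at 196 and 191, and H2-Eb1 at 156.4 and 156.6. These values chose the cells and are given as a description. The order was different in cells just outside the rule, where H2-Ab1 led with 105 CPM in wild type and 79.6 CPM in knockout, above Cd74 at 66.3 and 50.2. Over all tagged 5-FU cells, H2-Ab1 reached 39.7% (wild type) and 42.5% (knockout) of cells, against 13.8% and 14.2% for H2-Aa.

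Class II positive cells carried higher interferon gamma response transcripts and lower megakaryocyte and erythroid transcripts than cells with none of the 4 genes, in both genotypes. The comparison used UMIs summed over each pool and a log2 ratio of shares after adding 0.5 to each sum, over 12693 genes with at least 50 UMIs in the 4 pools and with the 4 rule genes left out. The median gene was at 0.01 in wild type and 0.02 in knockout. Past 2-fold in both genotypes, 108 genes were higher (0.851% of the genes measured) and 65 were lower (0.512%). With lineage-marked cells removed, 97 of 12625 were higher (0.768%) and 67 were lower (0.531%). The rule chose cells on transcripts of the same cells, so these ratios describe the chosen cells and support nothing about the choice itself. The gene lists used below were chosen with earlier results of these data known, so their counts are a description too. The counts also moved with the filters, from 340 genes at 20 or more UMIs to 59 at 200 or more, with 173 at 50. The balance of higher and lower genes turned when 2 of the 4 genes were enough (36 higher, 63 lower), in thinned cells (265 and 294, or 559 in all) and at 200 or more UMIs (23 and 36), and was 245 to 22 with 5 added to each sum.

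Of 19 interferon gamma response genes measured, 8 were past 2-fold higher in both genotypes (Gbp4, Gbp6, Gbp8, Gbp9, Iigp1, Tgtp1, Tgtp2 and Cxcl9) and none was past 2-fold lower. The list median was 0.85 in wild type and 1.14 in knockout, and without lineage-marked cells all 19 were above 0 in both genotypes, with medians of 0.85 and 1.17. When the rule was applied to cells thinned to 4000 UMIs the medians were 1.47 and 1.66. Iigp1, an interferon-inducible GTPase that acts on pathogen vacuoles, was at 94.8 CPM (451 UMIs) in wild-type positive cells against 24.3 CPM in cells with none, and at 136 CPM (501 UMIs) against 42.0 CPM in knockout cells. Its log2 ratios were 1.97 (1.78 to 2.15) and 1.69 (1.53 to 1.85). It was spread over 316 of the 742 positive cells, and in thinned cells it was detected in 26.4% of wild-type positive cells against 8.88% and in 29.9% of knockout positive cells against 13.1%. This was the best sampled of the 8 genes.

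The guanylate-binding proteins, a further family of interferon-induced GTPases, were higher by unequal amounts. Gbp8 had log2 ratios of 2.75 (2.05 to 3.49) in wild type and 2.53 (1.94 to 3.13) in knockout, from 93 UMIs in 76 positive cells. Gbp6 was at 2.62 and 2.97, Gbp4 at 3.62 and 3.01, and Gbp9 at 2.70 and 1.67. The members with more UMIs were nearer to 0: Gbp7 was at 0.58 and 0.62, Gbp2 at 0.78 and 1.14, and Gbp5 at 1.05 and 0.87. Tgtp1 and Tgtp2, near-identical copies whose reads may be split between them, were at 1.94 and 1.49, and at 1.31 and 1.40. Irf1, a transcription factor induced by interferon gamma, was higher by less than 2-fold, at 0.74 in both genotypes. The receptor chains and kinases Ifngr1, Ifngr2, Jak1 and Jak2 lay between -0.12 and 0.32.

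The chemokine genes of the interferon response had high ratios from few cells. Cxcl9, which draws activated T cells, was at log2 6.66 in wild type and 6.35 in knockout, but its 144 UMIs in positive cells came from 10 cells and a single cell held 45. Cxcl10, a second ligand of the same receptor, was at 4.91 and 4.55 from 144 UMIs in 14 cells, with 48 in a single cell. Without lineage-marked cells Cxcl9 was at 6.59 and 6.19, from 7 cells. Both chemokines therefore describe small numbers of cells and not the group.

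Of the other 10 genes among the 15 highest by the smaller of the 2 genotypes' ratios, Igkc, Ly6d, Aif1, Ckb, Ccr9, Plbd1 and Lgals3 rested on lineage-marked cells for part of their size. Igkc, the kappa light chain constant gene, was at 5.62 and 8.29 with all cells from 200 UMIs in 8 positive cells, and had no UMI in positive cells once these cells were removed. Ly6d, a gene of B cell progenitors, likewise went from 46 UMIs in 10 cells to none. Aif1, a gene of macrophages, went from 3.53 and 3.15 to 1.68 and 0.87, and Ckb from 2.04 and 2.16 to 0.56 and 0.98. Plbd1, a gene of phagocytes, went from 4.91 and 1.76 to -0.01 and -0.18, and Lgals3 from 2.48 and 1.75 to 0.17 and -0.60. Mpeg1, which encodes the pore-forming perforin-2 of phagocytes, kept ratios of 2.22 and 1.91 from 46 UMIs in 22 cells, against 3.08 and 2.37 with all cells. Slamf8 was at 1.64 and 2.14 without these cells, from 20 UMIs. The list medians depended on these cells likewise for B cell genes, of which 8 were measured, with -1.79 in wild type and 4.22 in knockout over all cells and 0.16 and 0.05 over the 3 measured without lineage-marked cells. For macrophage genes the medians were -0.42 and 1.90 over 6 genes and 0.44 and -0.13 over 3, and the defining genes Adgre1 and Siglec1 held at most 1 UMI in the positive cells of a genotype. The conventional dendritic cell list had 1 measured gene, Clec10a, at -1.47 and -1.30. Monocyte and dendritic priming genes had medians of 0.87 and 1.18 over 6 genes with all cells, with Ly86 and Ccr2 past 2-fold in both, and of 0.15 and 0.63 with none past 2-fold without the marked cells. Neutrophil priming genes had medians of -0.09 and 1.07 over 10 genes with all cells, and of 0.25 and 1.02 over 9 without the marked cells, but the knockout values rested on few cells: single unmarked cells held 327 of 330 Elane UMIs, 255 of 357 Ctsg UMIs and 87 of 176 Ms4a3 UMIs, and Ms4a3 was the gene at the median of 1.02. Endothelial genes had medians of 0.16 and 0.001 over 6 genes, and genes of T, NK and innate lymphoid cells of -0.24 and -0.04 over 4. The marks were set with genes of the B cell, dendritic cell and macrophage lists, so leaving out marked cells removes counts of those genes by construction. The part of mature cells in the values above was not tested beyond leaving out the marked cells.

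Other genes of class II presentation, which the rule did not use, were mostly higher in positive cells. Of 9 measured chaperones and loading genes, 3 were past 2-fold higher in both genotypes and none was past 2-fold lower, with medians of 0.50 in wild type and 0.67 in knockout. H2-DMb1, a beta chain of the peptide exchanger, was at 54.7 CPM in wild-type positive cells against 24.5 CPM and at 42.2 against 18.1 CPM in knockout cells, for log2 ratios of 1.16 (0.94 to 1.37) and 1.22 (0.939 to 1.495). Ctss, the protease cathepsin S that trims the invariant chain, was at 1.28 (1.05 to 1.51) and 1.29 (0.95 to 1.61). H2-DMb2 was at 1.47 and 2.25, and at 0.90 and 1.80 without lineage-marked cells. H2-DMa, the alpha chain of the exchanger, was abundant in both groups of cells and was at 0.49 and 0.45, and its UMIs were found in 58.2% of thinned wild-type positive cells and in 45.6% of those with none. Lgmn and Ifi30, endosomal processing genes, were at -0.12 and -0.24 and at -0.65 and -0.33 without lineage-marked cells.

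Of the 8 class II transcription factor genes, 1 was past 2-fold. Ciita, the class II coactivator, was at 11.3 CPM (54 UMIs) in wild-type positive cells against 2.88 CPM, and at 10.6 CPM (39 UMIs) against 3.25 CPM in knockout cells, with log2 ratios of 1.98 (1.43 to 2.51) and 1.71 (1.09 to 2.30). The ratios were 1.59 and 1.19 without lineage-marked cells. Its UMIs were found in 73 of the 742 positive cells. The subunits of RFX and NF-Y and Creb1 lay between -0.35 and 0.26 in both genotypes. Of 6 measured genes of the costimulation list, none was past 2-fold in both genotypes. Of these, 4 were above 0 and 2 below 0 in both, with medians of 0.37 in wild type and 0.30 in knockout. Cd86 was at 1.53 and 0.78, and Pdcd1lg2, a coinhibitory ligand gene on this list, at 0.96 and 0.60. Cd80 had no UMI and Cd40 had 3 UMIs in all positive cells.

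Class I presentation genes were higher together by a small amount. All 17 were measured, 16 were above 0 in both genotypes, none was past 2-fold, and the medians were 0.28 in wild type and 0.31 in knockout. H2-Q6 and H2-Q7, nonclassical class I genes with near-identical relatives among which reads may be split, were at 0.94 and 0.70 and at 0.77 and 0.70. Nlrc5, the class I counterpart of Ciita, was at 0.78 and 0.48. H2-K1 was at 0.33 (0.29 to 0.36) and 0.31 (0.27 to 0.35), and B2m, the light chain of class I, at 0.21 and 0.23. Together the list made 81.6 of every 10000 UMIs in wild-type positive cells against 66.4 in cells with none, and 79.6 against 64.6 in knockout cells.

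Interferon and class I transcripts were higher in cells with 3 or 4 of the class II genes than in cells with 0, but not in cells with 1. In wild-type cells without a lineage mark, interferon gamma response genes made 4.23, 4.17, 5.46, 6.16 and 9.72 of every 10000 UMIs in cells with 0, 1, 2, 3 and 4 class II genes. In knockout cells the series was 4.74, 3.96, 4.77, 7.63 and 11.4. Cells with 4 genes were thus higher than cells with 3 in both genotypes. Cells with 1 gene were below cells with 0 in knockout and near them in wild type. The split used the counts that chose the cells, so the series is a description, and spread between cells was not measured. In cells thinned to 4000 UMIs the mean number of these UMIs per cell went from 1.77 with 0 genes to 4.99 with 4 in wild type and from 2.10 to 5.39 in knockout. Class I genes made 66.4, 66.3, 72.9, 80.3 and 83.4 of every 10000 UMIs in wild type and 64.7, 61.8, 66.6, 78.3 and 83.4 in knockout.

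**Figure D3:**
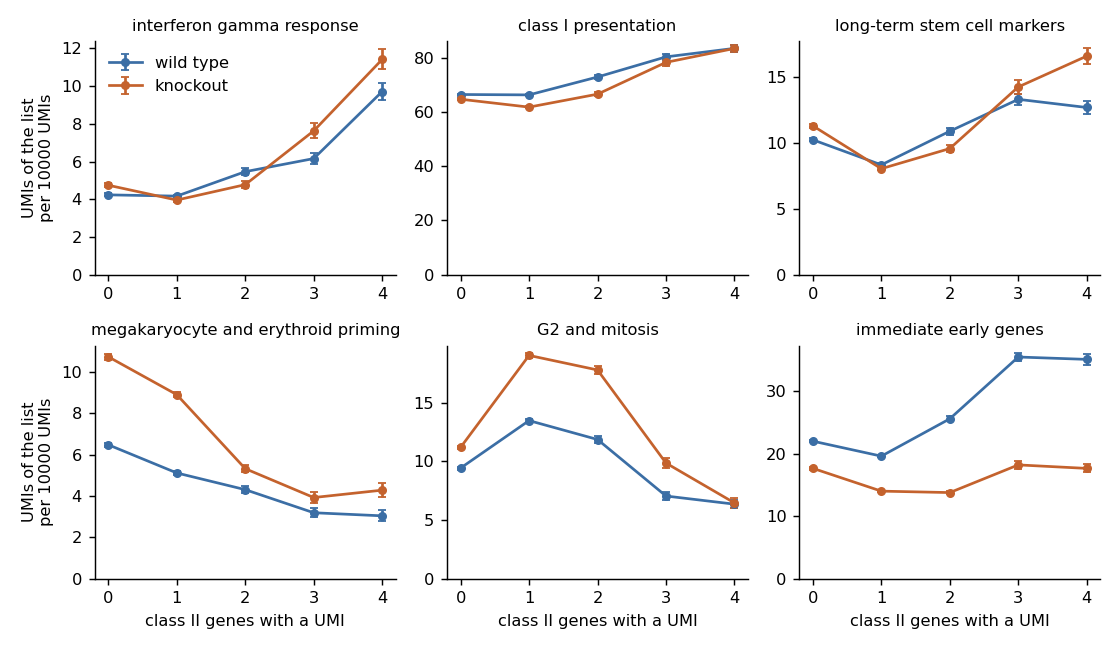
UMIs of 6 gene lists per 10000 UMIs of the pooled cells (y axis) against the number of class II genes with a UMI in the cell (x axis), without lineage-marked cells, with bars for exact Poisson 95% intervals. Interferon gamma response reaches 9.72 in wild type and 11.4 in knockout at 4 genes, and megakaryocyte and erythroid genes go from 6.48 to 3.05 and from 10.7 to 4.29.

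Type I interferon response genes were above 0 in both genotypes for 17 of 19 measured, but at different levels. The median was 0.76 in wild type and 0.36 in knockout. Ifit3 alone was past 2-fold in both, at 3.55 and 1.39, from 67 UMIs in 25 cells. Isg15, a ubiquitin-like protein induced by interferon, was at 1.12 in wild type and 0.02 in knockout, and Ifit1 was at 1.18 and 0.18. Rsad2, the antiviral enzyme viperin, was at 1.12 and 0.81. Of 13 genes of NF-kB and TNF signaling, 12 were above 0 in both genotypes, with medians of 0.56 and 0.54. The chemokine genes Ccl3, at 1.08 and 1.35, and Ccl4, at 0.93 and 1.04, were past or near 2-fold, and Nfkbia, the inhibitor that NF-kB induces, was at 0.35 and 0.40.

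Megakaryocyte and erythroid genes were lower in class II positive cells. All 10 were measured and below 0 in both genotypes, 7 of them past 2-fold (Gata1, Klf1, Pf4, Itga2b, Vwf, Car1 and Gfi1b), with medians of -1.48 in wild type and -1.63 in knockout. Gata1, the central factor of both lineages, was at 7.36 CPM in wild-type positive cells against 27.0 CPM, and at 7.85 against 28.3 CPM in knockout cells, for log2 ratios of -1.86 (-2.41 to -1.39) and -1.83 (-2.44 to -1.31). In thinned cells Gata1 was found in 0.48% of wild-type positive cells against 8.63% and in 2.72% of knockout positive cells against 7.20%. Pf4, a platelet chemokine, was at -1.34 and -1.88. Pf4 was an exception by detection: 15.7% of thinned wild-type positive cells held a UMI of it against 14.99% of cells with none. Vwf, the clotting factor that marks platelet-biased stem cells, was at -1.62 and -1.11. The 15 lowest genes by the smaller of the 2 ratios also held erythroid genes with few UMIs in positive cells. Apart from Gata1, these 15 reached the minimum of 50 UMIs over the 4 pools only through the cells with none. They thus entered through the group where they were high, and their ratios are a description. Rhag was at 1.05 CPM (5 UMIs) in wild-type positive cells against 4.75 CPM, and at 0.54 CPM (2 UMIs) against 3.25 CPM in knockout cells. Car1, a carbonic anhydrase of early erythroid cells, was at 0.84 CPM (4 UMIs) against 10.8 CPM and at 0.81 CPM (3 UMIs) against 6.60 CPM, but a single cell held 139 of its 254 UMIs in wild-type cells with none and another 50 of 130 in knockout. Tspo2 was at 0.21 CPM (1 UMI) against 2.33 CPM in wild type and had no UMI against 3.05 CPM in knockout. Sptb, the erythrocyte spectrin beta chain, was at 1.95 and 2.34 CPM in the cells with none and had no UMI in positive cells. The others were Gata1, given above, Dnah12, Ccl17, Trbc1, Ces2g, Col18a1, Gucy1b1, Klf1, Celf5, Lmna and 1 unnamed gene model.

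Long-term stem cell markers divided within the list. Procr, which encodes the endothelial protein C receptor of stem cells, was at 0.65 (0.48 to 0.81) in wild type and 0.81 (0.64 to 0.97) in knockout. Hlf, a transcription factor of stem cells, was at 728 against 457 CPM in wild type and 666 against 426 CPM in knockout, for ratios of 0.67 and 0.65. Slamf1, the gene of the stem cell surface marker CD150, was lower, at -1.15 (-1.51 to -0.83) and -0.57 (-0.85 to -0.31), and Ctnnal1 was at -1.43 and -0.54. In thinned cells Slamf1 was found in 4.28% of wild-type positive cells against 12.7% of those with none, and in 12.9% against 16.4% of knockout cells. Over the 10 genes the median was 0.02 in wild type and 0.21 in knockout, none was past 2-fold in both, 6 were above 0 in both and 2 were below 0 in both. Of the lymphoid priming genes, Flt3, the receptor that marks lymphoid-biased multipotent progenitors, was at 0.99 (0.86 to 1.12) and 0.93 (0.75 to 1.11), Satb1 at 0.71 and 0.87, and Notch1 at 0.59 and 0.38. With all cells, Il7r and Rag1 were detected in 4 and 2 positive cells and had opposite signs in the genotypes. Over the 10 lymphoid genes 1 was past 2-fold in both (Ccr9, a chemokine receptor), with medians of 0.35 and 1.13. Without lineage-marked cells the medians over 7 measured genes were 0.64 and 0.41, Ccr9 was at 1.59 and 0.87, and Il7r was past 2-fold lower in both, from 6 UMIs in 2 wild-type positive cells and 0 UMIs in knockout.

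**Figure D4:**
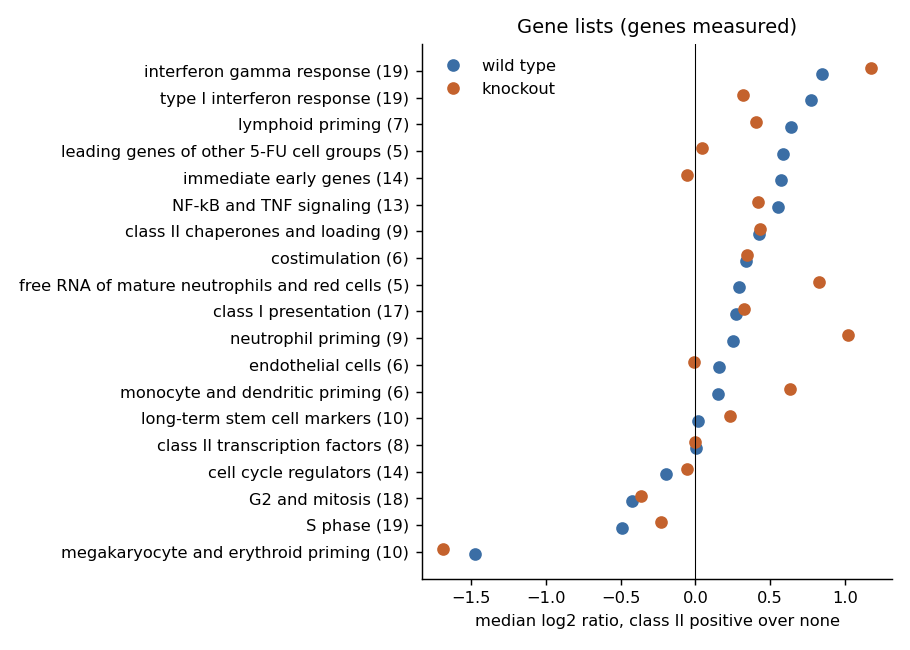
Median log2 ratio of class II positive cells over cells with none of the 4 genes (x axis) for the gene lists with at least 5 measured genes (y axis, number measured in brackets), without lineage-marked cells, in wild type (blue) and knockout (orange). The interferon gamma list lies highest at 0.85 and 1.17 and the megakaryocyte and erythroid list lowest at -1.48 and -1.69.

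Positive cells were scored on the signatures that the study lists for 5 LSK subsets, with class II genes taken out and all cells thinned to 4000 UMIs. The highest score assigned 22.6% of 421 wild-type positive cells to LT-HSC, 32.8% to ST-HSC, 26.6% to MPP4 (lymphoid-biased), 12.6% to MPP3 (myeloid-biased) and 5.46% to MPP2 (megakaryocyte and erythroid-biased). Against wild-type cells with none, the MPP2 share was lower by a difference of -11.6 points (-14.1 to -8.57) and the MPP4 share higher by 8.85 points (4.51 to 13.6). Of 294 knockout positive cells, 52.0% were assigned to LT-HSC, 10.9% to ST-HSC, 21.8% to MPP4, 8.84% to MPP3 and 6.46% to MPP2. Here the differences from cells with none were -14.1 points (-17.2 to -10.1) for MPP2, 9.53 points (4.85 to 14.8) for MPP4 and 14.3 points (8.03 to 20.4) for LT-HSC. The LT-HSC difference in wild type was 3.07 points, with an interval from -1.06 to 7.61. The ST-HSC difference had opposite signs, at 7.27 points (2.55 to 12.2) in wild type and -5.05 points (-8.69 to -0.61) in knockout. MPP3 shares were lower in both, by differences of -7.59 points (-10.9 to -3.70) and -4.67 points (-7.97 to -0.53). Cells with 1 or 2 class II genes did not lie between the 2 groups for MPP2, MPP3 or LT-HSC in either genotype. In knockout, MPP2 took 27.4% of them against 20.5% of cells with none, and LT-HSC 26.35% against 37.8%. In wild type the MPP2 shares were 17.6% and 17.1% and the LT-HSC shares 14.8% and 19.5%. For MPP4 and ST-HSC, cells with 1 or 2 genes lay between the 2 groups. These assignments cut a continuous score, and 26.1% of wild-type and 20.1% of knockout positive cells lay within 0.25 standard deviations of a second class.

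Cell cycle transcripts were lower in positive cells than in cells with none, and the latter were below cells with 1 or 2 class II genes. G2 and mitosis genes were below 0 in both genotypes for 16 of 18 measured, with medians of -0.47 in wild type and -0.20 in knockout, and S phase genes for 17 of 19, with -0.49 and -0.16. Mki67, a proliferation marker, was at -0.80 and -0.40. Without lineage-marked cells, S phase genes made 12.6 of every 10000 UMIs in wild-type cells with 0 class II genes, 17.5 with 1, 14.3 with 2, 9.95 with 3 and 8.92 with 4. In knockout cells the series was 15.2, 21.0, 18.6, 12.9 and 12.2. Cells with 1 gene thus had the highest level in both genotypes. In thinned cells a G1 call was made for 86.2% of wild-type positive cells (82.6 to 89.4) against 70.7% of cells with none, a difference of 15.5 points (11.4 to 19.1). In knockout cells it was made for 83.7% (78.9 to 87.7) against 71.8%, a difference of 11.9 points (6.76 to 16.4). Cells with 1 or 2 class II genes had G1 calls in 60.7% and 52.5%. When cells with 2 class II genes were counted as positive, the G2 and mitosis median in wild type turned to 0.11. Between 27.6% and 34.9% of cells in these groups lay near a phase boundary.

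Within class II positive cells, metallothionein genes and Nupr1 were higher in knockout cells and Slc16a11, Tjp1 and Mmp2 were lower. These genes had the same direction in cells with none of the 4 class II genes. Slc16a11, Tjp1 and Mmp2 reached the minimum of 50 UMIs through the wild-type cells, as did Ubash3a, Cpa3, Elavl4, Ifit3, Naaa, Arhgef28 and Arpp21 below. Mt2, Hoxb8, Inhba, Dnm3, Ly6c2 and Cxcl2 reached it through the knockout cells. These genes thus entered through the genotype where they were high, so the sizes of their ratios are a description. Over 10108 genes with at least 50 UMIs in the 2 pools, 118 were past 2-fold higher in knockout (1.17%) and 86 past 2-fold lower (0.851%). The balance depended on the choice of cells, with 118 higher and 155 lower when 2 of the 4 class II genes were enough and 27 higher and 41 lower in thinned cells. Without lineage-marked cells the counts were 96 of 10037 (0.956%) and 92 (0.917%). Of the 10 genes highest in knockout positive cells, 9 were carried by lineage-marked cells: the neutrophil granule genes Ngp, Chil3, S100a9, S100a8, Camp, Ltf and Lcn2 and the pre-B cell genes Igll1 and Vpreb3. A single cell held 568 of the 570 Ngp UMIs and 1222 of the 1226 S100a9 UMIs of knockout positive cells. The values for metallothioneins through Arpp21 that follow were taken without lineage-marked cells.

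Mt1 and Mt2, which encode metal-binding metallothioneins, were higher in knockout positive cells. Mt1 was at 128 CPM (456 UMIs in 131 cells) against 17.7 CPM (83 UMIs in 44 cells), a log2 ratio of 2.85 (2.51 to 3.21), and Mt2 was at 4.64 (3.25 to 7.17). In cells with none of the 4 genes the same ratios were 2.22 (2.10 to 2.33) and 3.64 (3.25 to 4.08). Nupr1, a stress-induced chromatin protein, was at 2.28 (1.94 to 2.65) against 1.501 (1.365 to 1.639), the homeobox gene Hoxb8 at 2.97 (2.01 to 4.24) against 1.40 (0.996 to 1.82), and Inhba, an activin subunit, at 2.81 (1.83 to 4.08) against 1.17 (0.75 to 1.62). Dnm3, a dynamin, was at 2.70 and 2.41. Wild-type positive cells held 9 UMIs of Hoxb8 in 6 cells and 9 UMIs of Inhba in 5 cells. The genes were named for their high ratios in positive cells, so the distance from the ratio in cells with none is a description. The ratios of Ly6c2, Elane and Cxcl2 rested on 1, 3 and 4 knockout cells, and a single cell held 327 of the 330 Elane UMIs.

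Slc16a11, a monocarboxylate transporter gene, was the lowest in knockout positive cells, with 132 UMIs in 63 wild-type cells and 2 UMIs in 2 knockout cells (log2 ratio -5.33, -8.71 to -3.77), and was at -3.91 (-4.60 to -3.34) in cells with none. Tjp1, a tight junction scaffold, was at -3.40 (62 against 4 UMIs) and Mmp2, a matrix metalloproteinase, at -2.80 (50 against 5 UMIs), with -3.33 and -1.92 in cells with none. Ubash3a was at -2.42 (-3.23 to -1.76), against -1.17 (-1.41 to -0.94) in cells with none, and Cpa3, a mast cell carboxypeptidase, at -2.26 (-3.13 to -1.55) against -0.72 (-0.91 to -0.53). Elavl4, an RNA-binding protein of neurons, was at -2.20 (-3.39 to -1.29) against -0.65 (-1.19 to -0.14). These genes were named for their low ratios in positive cells, so the distance from the ratio in cells with none is a description. Ifit3 was at -1.87 (-3.01 to -0.98) in positive cells and at 0.43 (-0.45 to 1.33) in cells with none. Naaa, a lysosomal amidase gene, was lower in knockout positive cells only with lineage-marked cells counted, at -1.53 with them and -0.48 (-1.87 to 0.73) without them. Arhgef28, at -2.09, and Arpp21, at -1.95, completed the 10 lowest together with Sin3b, but a single wild-type cell held 31 of the 53 Arpp21 UMIs.

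**Figure D5:**
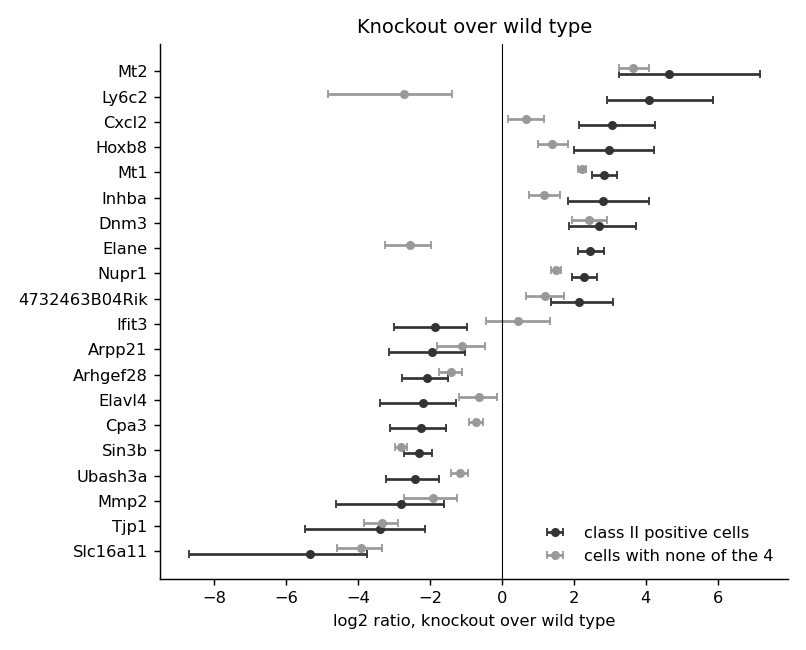
Log2 ratio of knockout over wild type (x axis) in class II positive cells (black) and in cells with none of the 4 genes (grey) for the 10 genes highest and 10 lowest in positive cells (y axis), without lineage-marked cells, with bars for 95% counting intervals. Slc16a11, Tjp1, Dnm3 and the metallothioneins lie on the same side in both groups, whereas Elane, Ly6c2 and Ifit3 do not.

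Immediate early genes, which respond to stimulation within minutes and also to tissue handling, differed between genotypes in class II positive cells, here with all cells counted. Fos was at 547 CPM in wild-type positive cells and 263 CPM in wild-type cells with none, but at 214 and 227 CPM in knockout cells. Its ratios over cells with none were 1.06 (0.99 to 1.12) in wild type and -0.08 (-0.20 to 0.03) in knockout. Egr1 was at 0.92 and 0.22. Of 13 genes measured between genotypes, 5 were past 2-fold lower in knockout positive cells (Fos, Fosb, Egr1, Klf2 and Zfp36) and none was higher, with a median of -0.86 in positive cells against -0.33 in cells with none. Over all 10108 genes measured between genotypes, 0.851% were past 2-fold lower and 1.17% past 2-fold higher. Of 14 measured over cells with none, the medians were 0.58 in wild type and 0.01 in knockout. A part of cell handling in these values was not tested.

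Interferon response genes were set between genotypes by list. With all cells counted, the median of the 19 interferon gamma response genes in knockout over wild-type positive cells was 0.41, with Gbp4 at 1.01 (0.30 to 1.75) and Gbp6 at 1.73 (1.06 to 2.47) past 2-fold, Iigp1 at 0.52 (0.33 to 0.70) and Cxcl9 at -0.41 (-0.93 to 0.09). In cells with none of the 4 genes the median was 0.20, and in positive cells chosen after thinning it was 0.13. The type I interferon list had a median of -0.24 in positive cells and 0.06 in cells with none, whereas its summed level was 19.04 of every 10000 UMIs in wild-type and 19.3 in knockout positive cells. The class II loading genes were at -0.28 and -0.27 in the same comparisons, and at 0.02 in positive cells by the mean of per-cell CPM, with Ctss at -0.69 (-1.03 to -0.36), and Ciita was at -0.10 (-0.74 to 0.52). Of the 10 stem cell markers, 3 were past 2-fold higher in knockout positive cells (Slamf1, Hoxb5 and Ctnnal1), with a list median of 0.42 against 0.33 in cells with none. The share past 2-fold higher over all genes measured between genotypes was 1.17%.

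Genes that lead other small groups of the 5-FU library were set beside the positive cells by detection. At least 2 of Cldn5, Cyp26b1 and Cxcl10 were detected in 1 of 440 wild-type positive cells against 0 of 2556 (exact binomial upper bound 0.144%), and in 3 of 302 knockout positive cells (0.99%) against 15 of 1725 (0.87%). Nr4a1 and Gem were detected together in 4.32% (2.62 to 6.66) of wild-type positive cells against 4.23% of cells with none and in 7.28% (4.62 to 10.8) against 6.61% in knockout cells. In thinned cells the shares were 1.19% (0.39 to 2.75) against 1.89% in wild type and 1.02% (0.21 to 2.95) against 2.09% in knockout. Slc16a11 was detected in 14.3% of wild-type positive cells against 10.5%, and in thinned cells in 6.89% against 6.50%. In knockout cells it was detected in 0.66% against 1.33%, and in thinned cells in 0 of 294 against 0.47%.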

How the data were processed

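Gene and hashtag UMI counts were deposited by the authors as Cell Ranger matrices (Cell Ranger named in the submitters' processing notes), with raw counts per barcode and no normalization. The notes name mm9, whereas promoters were read from RefSeq on GRCm38.p6, so no coordinates of the files were used. Hashtags were called with HTODemux in Seurat 5.3.0 (quantile 0.99). The call used all barcodes of the 5-FU matrix and, at homeostasis, only the barcodes taken as cells. Barcodes with both tags were left out as doublets, whereas doublets within a genotype carry 1 tag and were not removed. In the homeostasis matrix, barcodes with at least 2921 gene UMIs were taken as cells. The 5-FU matrix summed to 141497146 gene UMIs.

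UMIs were summed per genotype and cell group (python 3.11.15, scipy 1.17.1). Log2 ratios had 0.5 added to each sum, with Clopper-Pearson 95% intervals from the split of the counts. Signatures and phases were scored in scanpy 1.11.5 on cells thinned to 4000 UMIs. The scripts were tested on simulated data. The study's methods pooled the mice of each genotype, so no p-value was computed. Members and the 26 gene lists were chosen with earlier results of these data known. Of 286 listed genes, 2 were not in the table. Named genes were the 15 highest and 15 lowest by the smaller of both genotypes' ratios, the 10 highest and 10 lowest between genotypes whose interval left out 0, and the 5 highest and 5 lowest by the difference of that ratio between cell groups, each with at least 50 UMIs. Lineage-marked cells held at least 3 UMIs of B cell genes, 3 of dendritic cell and macrophage genes, 10 of mature neutrophil genes or 2 of T cell genes, a definition made after the data were seen. Some genes are not reported here.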

Additional observations from a re-analysis of the deposited data

Results flagged for a closer look

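Some gene lists had medians of opposite sign in the genotypes when class II positive cells were set over cells with none of the 4 genes, and these differences were not tested. For B cell genes the median log2 ratio was -1.793 in wild type and 4.219 in knockout, for macrophage genes -0.4191 and 1.9, and for transcripts of mature neutrophils and red cells -3.596 and 2.452. Without lineage-marked cells the medians were 0.16 and 0.05, 0.44 and -0.13, and 0.29 and 0.83, over fewer measured genes. The marks were set with genes of these lists, so their removal takes out such counts by construction.

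Barcodes outside the comparisons also met the class II rule. Of 3290 barcodes with no called tag, 2.705% (89) met it, and those 89 had a median of 6303 UMIs against 4162.5 over all 3290. Of 434 barcodes with both tags, 17.05% (74) met it, and those 74 had a median of 22499.5 UMIs against 22596 over all 434.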

How the results depend on the processing

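Several values depended on how cells and genes were taken in, and causes were not tested. With 2 of the 4 genes enough, the shares were 17.94% and 18.57%, 99 genes were past 2-fold over cells with none (36 higher, 63 lower), 273 between genotypes (118 higher, 155 lower) and Car1 in knockout was at 0.4483. With all 4 genes required, the shares were 3.187% and 3.649%, 268 genes were past 2-fold over cells with none and 117 between genotypes, and the knockout over wild-type ratios of S100a9, Camp and Ltf were -1.301, -2.038 and -1.301. With cells thinned to 4000 UMIs the shares were 3.959% and 3.941%, the counts 559 (265 higher, 294 lower) and 68 (27 higher, 41 lower), Trbc1 in knockout 4.156, S100a9 and S100a8 -0.3009 and Camp -1.149. With a tag called from 80% of hashtag UMIs the knockout share was 6.28% and the difference -1.398 points. At least 20 UMIs gave 340 and 492 genes and at least 200 UMIs gave 59 and 44, against 173 and 204 at 50, as the number of genes taken in changed. Adding 5 to each sum gave 267 genes (245 higher, 22 lower) and put Trbc1 in knockout at 0.6485, and the mean of per-cell CPM gave 103 higher and 95 lower. Without lineage-marked cells the values for Ly6d and Plbd1 in wild type were both -0.01169, Plbd1 in knockout -0.1782, Lgals3 in knockout -0.6048, and between genotypes S100a9 -0.8258, Camp -1.188, Ltf -1.925 and Vpreb3 -1.188. For the 10 lists recomputed (interferon gamma, type I interferon, class I, class II loading, NF-kB, stem cell, megakaryocyte and erythroid, immediate early, S phase and G2 lists), 335 of 379 medians under the alternatives differed by less than 0.25 on the log2 scale from the value reported, and 3 of the 266 whose reported size was at least 0.25 had the opposite sign: the G2 list in wild type (0.1065 with 2 genes enough), and between genotypes the S phase list (-0.1556 with thinned cells) and class II loading (0.01637 by per-cell CPM). The medians that differed by 0.25 or more were most frequent with cells thinned to 4000 UMIs (16 of 29) and with 2 genes enough (12 of 30). The lists of mature cell types depended on the lineage-marked cells as given above. No paired analysis was possible because each genotype was 1 pool, so the genotypes shared no replicate numbers and no replicate could be left out.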
